A study of Rattus norvegicus with 3 samples.

Results

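Oxidative phosphorylation genes of the cell nucleus were read in hippocampal RNA from healthy wild-type rats. All of them had received Q808, a code-named candidate against seizures, through a gavage tube over 28 days. The series as used here has 3 samples, all of this 1 group, with no untreated sample, so no value below measures an effect of Q808. The sources give no strain, sex or age, nor whether the 3 samples came from 3 rats. The count columns carry the prefix Con_Q, which no source explains, so the treatment rests on the sample labels.

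The genes were chosen by symbol: Nduf without the assembly factors Ndufaf, Sdha to Sdhd, Uqcr and Cyc1, Cox4 to Cox8, and Atp5. They filled 93 of the 18560 gene rows of replicate 2, of which 88 were protein coding and 5 were pseudogenes in RefSeq. By symbol, 43 rows fell to complex I, 4 to complex II, 10 to complex III, 18 to complex IV and 18 to complex V. In the files used here, replicate 1 ends after 12 genes, at Aak1, and replicate 3 after 307, at Adcy8, so that neither holds any of the 93. All levels are therefore those of 1 library with 15417009 counts and have no replicate check.

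The respiratory chain of the inner mitochondrial membrane passes electrons from NADH and succinate to oxygen. Complexes I, III and IV pump protons on the way, and complex V, the ATP synthase, uses the returning protons to make ATP. Complex II alone is encoded wholly in the nucleus. The others combine nuclear subunits with subunits of the mitochondrial genome, of which no row was present. In brain, most of this ATP pays for ion pumping after synaptic and action potentials.

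Levels are given as CPM, the count of a gene scaled to the library total. The tissue label was checked with listed marker genes. The neuron genes Snap25 (2479 CPM), Syt1 (1633 CPM) and Slc17a7 (1796 CPM) were read, as were the hippocampal field genes Prox1 (136 CPM), Wfs1 (190.2 CPM) and Cpne4 (276 CPM). All 3 astrocyte genes, all 3 oligodendrocyte genes and all 3 microglia genes listed had at least 10 counts, as did 77.0% of all rows. The choroid plexus gene Ttr stood at 176 CPM, beside 36 counts for Folr1 and 64 for Clic6. In such bulk tissue, fewer cells of a type and less RNA per cell cannot be told apart.

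Respiratory chain subunits were broadly read. Of the 93 rows, 87 (93.5%) had at least 10 counts, against 77.0% of all rows in the table. At least 100 CPM was reached by 53 members (57.0%), against 13.1% of all rows. The median member had 109.8 CPM and the median over all rows was 12.7 CPM, or 25.2 CPM over rows with at least 10 counts. Together the members took 1.29% of all counts, with a 95% exact interval of 1.28% to 1.29%. These values are read yields. The files used here give no transcript length, so CPM was not corrected for it, and a gene with more CPM than another need not have more mRNA molecules. For the 68 members with at least 1000 counts the 95% counting interval reached 1.42% to 6.27% from the value.

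The 6 members under 10 counts were the pseudogene rows Ndufs6-ps1 and Uqcr10-ps1, the complex I paralog Ndufb11b, the complex IV isoforms Cox6a2 and Cox7b2, and the accessory complex I subunit Ndufa1. Ndufs6 and Atp5pb were also low for subunits that every enzyme copy contains. For both, as for Ndufa1, a second gene row has the product name of the same or a like subunit.

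**Figure D1:**
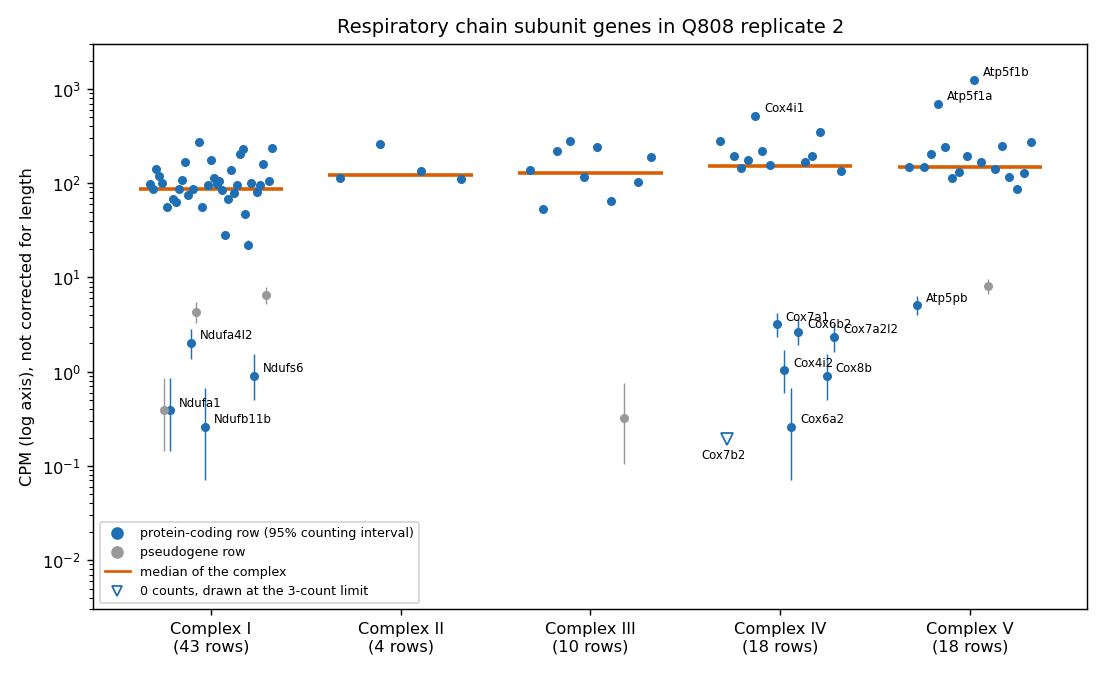
CPM of the 93 member rows in Q808 replicate 2 by complex, on a log axis and not corrected for length. Points are genes spread sideways for sight, vertical lines are 95% counting intervals, and horizontal lines are medians, which lie between 87.0 CPM in complex I and 151 CPM in complex IV, with a lower tail of isoforms, paralogs, pseudogenes and the subunit genes Ndufa1, Ndufs6 and Atp5pb.

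Complex medians of read yield ran from 87.0 to 151 CPM. The median was 87.0 CPM in complex I (quartiles 55.6 and 110.2 CPM), 123.5 CPM in complex II (112 and 165 CPM) and 128 CPM in complex III (74.1 and 213 CPM). It was 151 CPM in complex IV (2.42 and 196 CPM) and 148 CPM in complex V (119 and 232 CPM). The wide span of complex IV came with its tissue isoforms. Without tissue isoforms, associated proteins and pseudogenes, the medians ran from 95.8 CPM in complex I to 195 CPM in complex IV. Complex II then stood at 123.5 CPM, complex III at 139.5 CPM and complex V at 157 CPM. Summed over members, complex V took 0.432% of all counts and complex I 0.396%, although complex I has more rows. Complex IV took 0.255%, complex III 0.141% and complex II 0.0615%. A large part of the complex V sum came from 2 genes, Atp5f1b and Atp5f1a.

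Complex I, NADH dehydrogenase, is the entry point for electrons from NADH. Its nuclear core subunits hold the flavin and the iron-sulfur clusters that carry electrons to ubiquinone. Ndufv1, which binds the flavin and NADH, had 3683 counts (239 CPM, 95% counting interval 231 to 247). Ndufs1, the largest iron-sulfur subunit, had 2728 counts (177 CPM). Ndufv2, a partner of Ndufv1 with its own cluster, had 2159 counts (140.04 CPM).

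Further core genes had fewer counts. Ndufs7 had 1612 counts, Ndufs3 had 1545 and Ndufs8 had 1038, the lowest of the core at 67.3 CPM. The 7 core genes thus spread from 1038 to 3683 counts. They had a median of 140.04 CPM, beside 87.0 CPM for the 29 protein-coding accessory subunits. The ratio of the median counts was 1.61, and the ranges overlapped widely.

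Accessory subunits, which surround the core and support its assembly and stability, were mostly close to one another. Their quartiles were 68.6 and 106.6 CPM. Ndufb9 (3131 counts), Ndufa8 (2599) and Ndufb8 (2485), all of the membrane arm, had the most counts among them. Ndufs4, a subunit whose loss causes Leigh syndrome in humans and mice, had 1643 counts (106.6 CPM). Ndufab1, the mitochondrial acyl carrier protein that also serves lipoate synthesis, had 1664 counts. Ndufa13, also known as GRIM-19, had 1858 counts.

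Below 1000 counts lay Ndufa7 (970), Ndufc1 (861), Ndufa2 (853) and Ndufa3 (728). Ndufa12, a small subunit of the matrix arm, had 342 counts (22.2 CPM). Ndufs6 had 14 counts (0.908 CPM, 0.496 to 1.52) and Ndufa1 had 6 (0.389 CPM, 0.143 to 0.847). Both are accessory subunits present in each complex I of mammals.

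Paralogs and pseudogenes made up the rest of the Nduf rows. Ndufa10 had 2103 counts and its paralog Ndufa10l1 had 438, a ratio of counts of 4.80 (95% counting interval 4.33 to 5.33). Ndufb11 had 1332 counts and Ndufb11b had 4. The pseudogene rows Ndufs5-ps2, Ndufa3-ps3 and Ndufs6-ps1 had 100, 66 and 6 counts. How reads of such near-identical copies were shared out by the authors' counting is not stated, so these splits are uncertain.

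**Figure D2:**
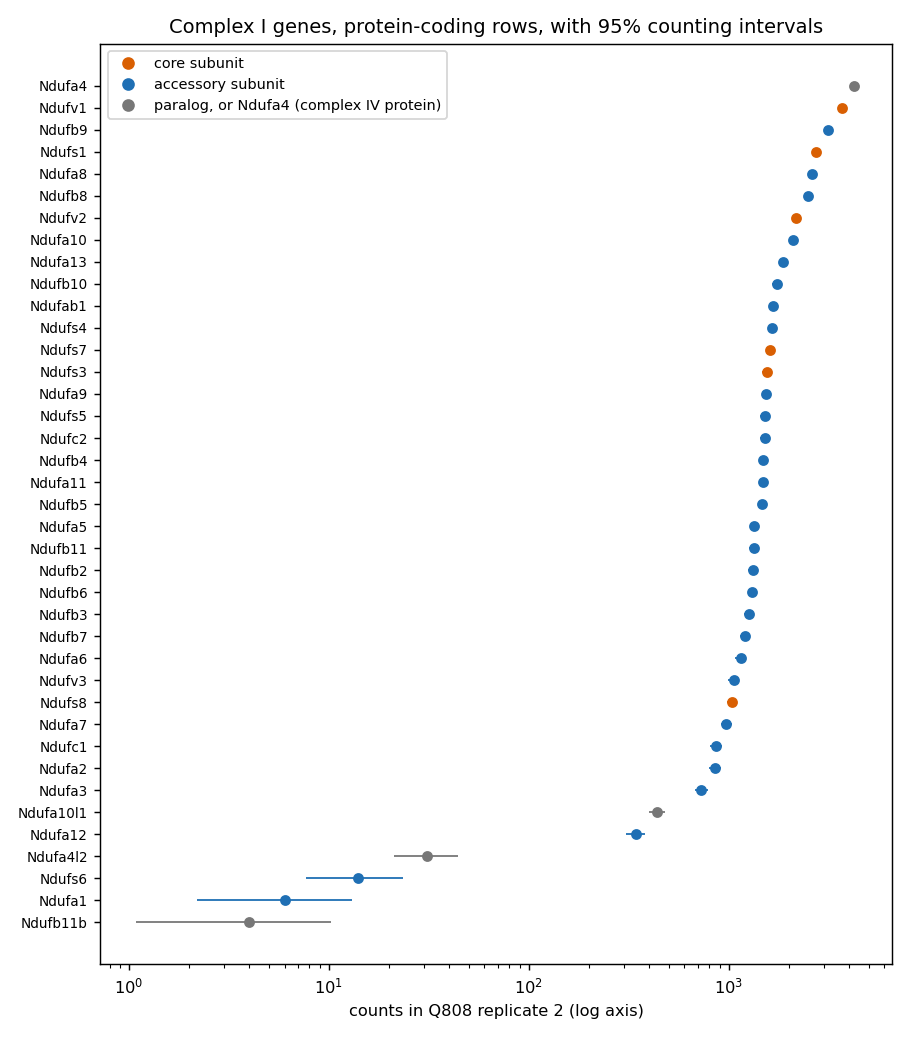
Counts of protein-coding Nduf rows in Q808 replicate 2, without 1 gene that is not reported here, ordered by count on a log axis, with 95% counting intervals as lines. Core subunits run from 1038 to 3683 counts, most accessory subunits lie among them, and Ndufs6 (14) and Ndufa1 (6) stand far below.

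Complex II, succinate dehydrogenase, joins the citric acid cycle to the chain and was read from all 4 of its genes. Sdha, the flavoprotein that oxidizes succinate, had 3983 counts (258 CPM, 250.4 to 266.5). Sdhc and Sdhd, which anchor the complex in the membrane, had 2062 counts (134 CPM) and 1746 counts (113 CPM). Sdhb, the iron-sulfur subunit, had 1693 counts (109.8 CPM). The intervals of Sdhb and Sdhd overlapped, those of Sdhd and Sdhc did not, and Sdha had the most counts.

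Complex III passes electrons from ubiquinol to cytochrome c. Its large core genes Uqcrc2 and Uqcrc1 had 4336 counts (281 CPM) and 3399 counts (220.5 CPM). The catalytic subunits Cyc1, which carries heme, and Uqcrfs1, the Rieske iron-sulfur protein, had 2919 counts (189 CPM) and 2151 counts (139.5 CPM). These 4 genes had a median of 205 CPM.

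The 5 protein-coding small subunits had a median of 103 CPM. Uqcr11 was the highest with 3732 counts (242 CPM). Uqcrh, the hinge protein near cytochrome c, had 1790 counts, and Uqcrq had 1591. The lowest were Uqcrb with 992 counts (64.3 CPM) and Uqcr10 with 830 counts (53.8 CPM). A pseudogene row, Uqcr10-ps1, had 5 counts. Cycs, the somatic cytochrome c that takes up the electrons, is outside the set and had 2798 counts (181 CPM).

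Complex IV, cytochrome c oxidase, reduces oxygen to water. Its nuclear genes include ubiquitous isoforms and isoforms restricted to muscle, lung or testis. The ubiquitous isoforms were read at high yield in this hippocampus. Cox4i1, the regulatory subunit that binds ATP, was the highest with 7972 counts (517 CPM, 506 to 529), followed by Cox6a1 with 5425 counts (352 CPM) and Cox8a with 4351 counts (282 CPM).

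Among the single-isoform subunits, Cox7c had 3363 counts (218 CPM). Cox5a and Cox6c had 3015 and 3014 counts, within counting error of each other. Cox5b, which binds zinc, had 2421 counts (157 CPM). Cox7a2l, which helps join complex III and complex IV into supercomplexes, had 2583 counts (168 CPM), and the related Cox7a2l2 had 36. The 11 complex IV genes with at least 1000 counts spanned 2069 to 7972 counts.

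In all 7 pairs, the isoform of other tissues gave a small part of the counts. Cox6a2, the heart and skeletal muscle form, had 4 counts, and Cox6a1 had 1356 times as many (95% counting interval 529 to 4979). Cox8b, a muscle form of rodents, had 14 counts, and Cox8a had 311 times as many (185 to 569). Cox7a1, the third muscle form, had 49 counts, beside 2243 for Cox7a2, a ratio of 45.8 (34.5 to 62.1). Its share of the pair was 2.14%. Cox7a1 was the highest of the muscle forms and Cox6a2 the lowest.

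Striated muscle genes were also read at low yield in this library. All 7 of the marker genes listed had a count and 6 had at least 10, a minimum that 77.0% of all rows reached. The 7 markers ranged from 2 counts for Mb to 190 for Acta1, with a sum of 31.7 CPM. Their part in the counts of muscle isoforms was not tested.

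Cox4i2, the lung form that is also found in vascular cells, had 16 counts, and Cox4i1 had 498 times as many (307 to 872). Ndufa4, named for complex I but part of complex IV, had 4222 counts (274 CPM). Its paralog Ndufa4l2, induced by low oxygen and expressed in pericytes of mouse brain, had 31 counts, a ratio of 136 (95.8 to 201). Of the pericyte and smooth muscle markers, all 6 had at least 10 counts, as did 77.0% of all rows. These 6 markers ranged from 25 counts for Kcnj8 to 340 for Pdgfrb, with a sum of 59.1 CPM. Their part in the counts of Cox4i2 and Ndufa4l2 was not tested.

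The testis forms differed from each other. Cox6b2 had 41 counts, and Cox6b1 had 66.1 times as many (48.6 to 92.4). Cox7b2 had no count, where the floor of 3 counts stands at 0.195 CPM, so Cox7b with 2069 counts had at least 689.7-fold more, a bound set against a floor of 3 counts in this library. The one germ cell marker with a row, Acrv1, also had no count.

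**Figure D3:**
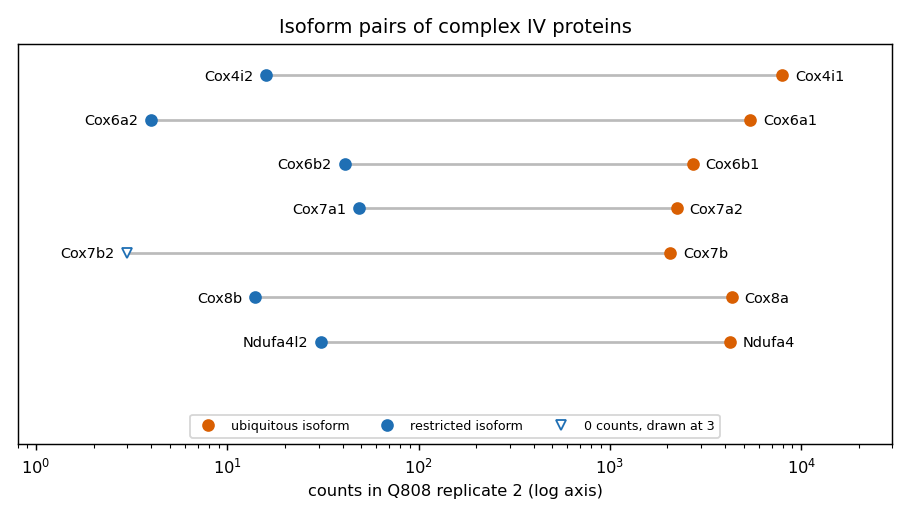
Counts of 7 isoform pairs of complex IV proteins in Q808 replicate 2 on a log axis, each line joining the ubiquitous isoform and the isoform of restricted tissues. The ubiquitous isoforms lie between 2069 and 7972 counts and the restricted ones between 0 and 49, with Cox7b2 (0 counts) drawn at the floor of 3.

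Complex V makes ATP in a catalytic head, F1, turned by a ring of c subunits in the membrane. The head genes gave the most reads of all members. Atp5f1b, the catalytic beta subunit, had 19379 counts (1257 CPM, 1239 to 1275) and ranked 58th of all rows. Atp5f1a, the alpha subunit, had 10792 counts (700.0 CPM) and ranked 152nd. Both proteins occur in several copies per enzyme, in equal number, while Atp5f1b had 1.80 times the counts of Atp5f1a (1.75 to 1.84).

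The stalk of the head had fewer counts. Atp5f1d and Atp5f1c, the delta and gamma subunits of the rotor, had 3846 counts (249.5 CPM) and 3722 counts (241 CPM). Atp5f1e, the short epsilon subunit, had 1961 counts (127 CPM). The 5 head and rotor genes together took 0.258% of all counts, most of it from Atp5f1b and Atp5f1a. The c-ring genes took 0.0556%, the peripheral stalk genes 0.0517% and the small membrane subunits 0.0513%. In the same order, the group medians were 249.5, 147, 154 and 129 CPM.

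The c-ring is built from 1 mature protein encoded by Atp5mc1, Atp5mc2 and Atp5mc3, which differ in their import sequences. Atp5mc3 gave 4269 counts (277 CPM), Atp5mc1 2269 (147 CPM) and Atp5mc2 2040 (132 CPM). Atp5mc3 therefore held 49.8% of the c-ring counts (48.7% to 50.8%), Atp5mc1 26.5% and Atp5mc2 23.8%. The counts of Atp5mc1 and Atp5mc2 differed by a ratio of 1.11 (1.05 to 1.18). Reads of these similar coding sequences may have been split between the genes, and the rule of the counting is not stated.

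The peripheral stalk holds the head still against the rotor. Atp5po and Atp5pd, both stalk subunits, had 3137 counts (203 CPM) and 3018 counts (196 CPM), and Atp5pf had 1737 counts (113 CPM). Atp5pb, the main rod of the stalk, had 78 counts (5.06 CPM).

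Small membrane subunits that shape the ATP synthase dimer lay close together. Atp5mg had 2583 counts (168 CPM), Atp5mf 2190 (142 CPM), Atp5mk 1796 (116 CPM) and Atp5me 1341 (87.0 CPM). Atp5if1, the inhibitor that stops the enzyme from running backwards, had 2299 counts (149 CPM). A pseudogene row, Atp5mk-ps2, had 124 counts. Atp5pb was the 1 protein-coding gene of 17 in complex V under 1000 counts.

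Several low members have a second gene row whose product name is of the same or a like subunit. A search of product names among rows without a RefSeq symbol, made after the counts had been seen, found 7 such second rows. Atp5pb had 78 counts, and the row for an ATP synthase subunit b-like product had 308. Atp5pb thus held 20.2% of the 386 counts of both rows (16.3% to 24.6%). Ndufs6 had 14 counts and a second row with an iron-sulfur protein 6-like product had 20. A further Ndufs6-ps1 row, which carries the subunit S6 product name, had 6. Ndufa1 had 6 counts and its second row had 13.

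In these 3 subunits the second row had more counts than the row with the symbol. Their sums, at 386 counts for Atp5pb, 34 for Ndufs6 (2.21 CPM) and 19 for Ndufa1 (1.23 CPM), were still under the lower quartile of their complex. Other second rows were empty or nearly so: Cox7a1 (49 counts) had 1 there, and Ndufa12 (342 counts) and Atp5mf (2190 counts) had 0. Whether reads that fit more than 1 place were dropped in the counting is not stated, and its part in these low counts was not tested.

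**Figure D4:**
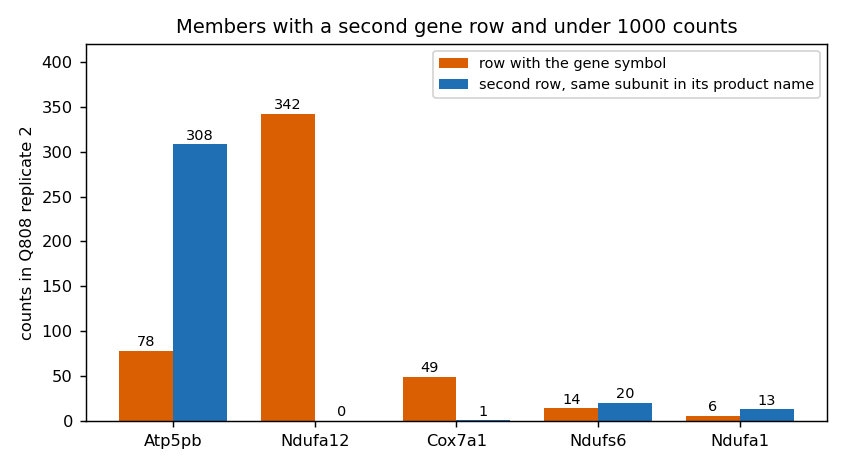
Counts in Q808 replicate 2 of the 5 members under 1000 counts that have a second gene row, with the row that carries the gene symbol on the left and the second row on the right of each pair. The second row is higher for Atp5pb (308 beside 78), Ndufs6 (20 beside 14) and Ndufa1 (13 beside 6).

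Promoter sequence is a feature that the choice of genes did not use. RefSeq promoter windows of assembly GRCr8, 250 bases before to 50 after a gene's start, matched 77 of the 93 members, all protein coding. The factors NRF-1, GABP of the ETS family and YY1 are known regulators of respiratory genes in mammals. The NRF-1 letters searched were GCGCA and GCGC with any 1 base between them, on both strands. They occurred in 14 member windows (18.2%), against 9.34% of windows of 11386 genes with at least 10 counts and 4.71% of all 27457 windows, counting 1 start per gene.

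The ETS core CCGGAAG occurred in 21 member windows (27.3%), against 16.3% of the windows of genes with at least 10 counts. The YY1 letters AAGATGGCG occurred in 10 (13.0%), against 3.44%. At least 1 of these 3 was present in 39 of 77 member windows (50.6%), against 25.8%. The SP1 box GGGCGG went the other way, at 41.6% of member windows against 61.0%. The TATA letters TATAAA were in 11.7% of member windows against 6.87%, and the CCAAT box in 33.8% against 37.2%. Median GC content was 56.0% in member windows and 60.7% in windows of genes with at least 10 counts. A letter match is not a binding site, and no test was made of these shares.

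Most matches in these 300-base windows lay near the start. The 17 NRF-1 matches had a median first base 56 bases before it, and 15 of them began within 100 bases of it. Of the 27 ETS matches, 19 did so. Of the 10 YY1 matches, 8 began after the start, with a highest position of 37 in windows that end at 50, and the lowest was at −111. SP1 boxes, less frequent in members, had a median of −64, and 32 of 44 began within 100 bases. No positions in other genes stand beside these. By complex, the NRF-1 letters were found in 7 of 36 windows of complex I, 1 of 4 of complex II, 1 of 6 of complex III and 5 of 16 of complex V. None of the 15 complex IV windows held them, beside 9.34% of windows of genes with at least 10 counts. A shorter form, GCGCA and GC with any 1 base between, was in 1 of the 15, against 18.4% of windows of those genes. The ETS core was in 4 of the 15, against 16.3%. With so few windows per complex, these shares cannot tell the complexes apart. Members with the NRF-1 letters had a median of 97.5 CPM (14 genes), and members with a window that lacks them 112 CPM (63 genes).

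Windows of 60 bases that end at or before the start are shown for 6 members, at least 1 from each of complexes I, II, III and V, to let the NRF-1 letters, in capitals, be compared in their surroundings. All are GRCr8, written 5′ to 3′ on the gene's strand.
Sdha (chr1:30764482-30764541, plus strand): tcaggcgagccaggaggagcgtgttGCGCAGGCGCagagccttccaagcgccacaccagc
Ndufs6 (chr1:31797340-31797399, plus strand): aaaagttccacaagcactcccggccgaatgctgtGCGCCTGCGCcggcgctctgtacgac
Uqcrc1 (chr8:118468134-118468193, plus strand): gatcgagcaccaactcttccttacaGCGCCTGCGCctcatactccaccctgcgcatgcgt
Atp5mc2 (chr7:135678240-135678299, minus strand): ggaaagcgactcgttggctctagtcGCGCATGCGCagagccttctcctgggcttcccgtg
Atp5po (chr11:44657508-44657567, minus strand): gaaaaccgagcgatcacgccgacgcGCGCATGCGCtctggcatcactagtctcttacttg
Atp5me (chr14:1464759-1464818, plus strand): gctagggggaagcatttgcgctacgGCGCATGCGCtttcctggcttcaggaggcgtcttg

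Ndufs6 and Uqcrc1 were the 2 members with both the NRF-1 and the YY1 letters. Windows of 30 bases around the YY1 letters, in capitals, are shown for them and for 3 others, since the match sits near the start and holds an ATG.
Ndufs6 (chr1:31797412-31797441, plus strand): gggtcgtcggcAAGATGGCGgcggcgctga
Uqcrc1 (chr8:118468211-118468240, plus strand): acggaagttagAAGATGGCGgcgtccgcag
Ndufs4 (chr2:47794892-47794921, minus strand): ttgcccacaggAAGATGGCGgcggtctcaa
Ndufs7 (chr7:10110476-10110505, minus strand): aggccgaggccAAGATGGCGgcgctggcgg
Ndufa9 (chr4:161374142-161374171, minus strand): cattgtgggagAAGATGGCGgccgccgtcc

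The counts of these genes differed widely. Uqcrc1 had 3399 counts and Ndufs6 had 14, or 34 with its second row. The Ndufs6 count is uncertain, since the treatment of reads with several placements is not stated. Ndufs4, Ndufs7 and Ndufa9 had 1643, 1612 and 1544 counts.

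**Figure D5:**
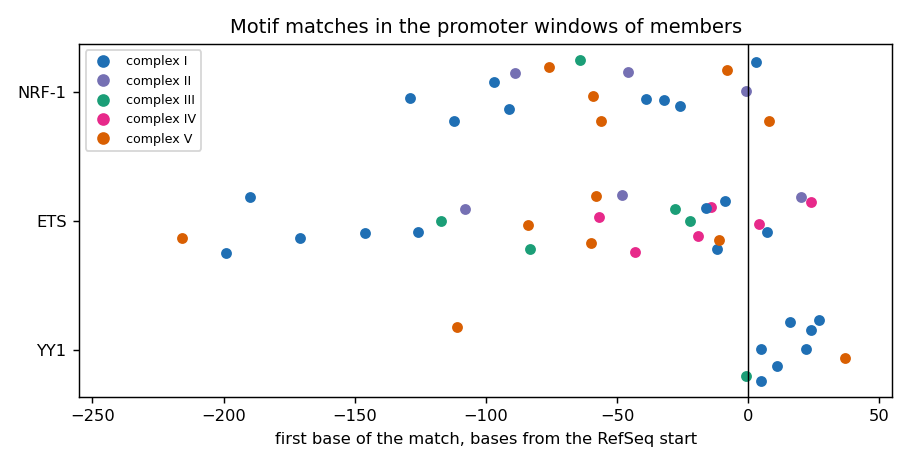
Position of motif matches in the 77 promoter windows of members, in bases from the RefSeq start (black line), coloured by complex and spread up and down for sight. NRF-1 matches lie mostly before the start, with a median of −56, and 8 of the 10 YY1 matches begin after it.

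Some members share an upstream region with a neighbouring gene. A gene on the opposite strand began within 1000 bases before the start of 21 of the 77 members with a window (27.3%). The share was 14.9% of genes with at least 10 counts and a window. The neighbour was protein coding for 18 of the 77 members (23.4%), against 10.2% of those genes. Atp5pf (1737 counts) faces Gabpa (432 counts), the gene of the ETS factor GABP alpha, with 163 bases between the starts. Sdhd (1746 counts) faces Timm8b (1751 counts), a chaperone of mitochondrial import, at 96 bases. Ndufb5 (1470 counts) faces Mrpl47 (230 counts), of the mitochondrial ribosome, at 244 bases, and Cox4i1 (7972 counts) faces Emc8 (342 counts) at 148 bases. Counts on the 2 sides of a shared region were close for Sdhd and far apart for Cox4i1. These neighbours come from RefSeq, not from the counted annotation.

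Genes that build or regulate the chain were read from a separate list. Of 52 assembly factors listed, 48 had a row and 46 of these had at least 10 counts, as did 77.0% of all rows. The median of the 48 factors, with no count minimum, was 22.4 CPM. It was 12.7 CPM over all rows and 25.2 CPM over all rows with at least 10 counts. While 13.1% of all rows reached 100 CPM, 2 of the 48 factors did. These were Coa5 (180.3 CPM) and Lrpprc (111 CPM), which act in the making of complex IV. For complex I, Acad9 (43.9 CPM) and Ndufaf7 (39.6 CPM) were the highest of 14. For complex II, Sdhaf2, which helps to add flavin to Sdha, had 64.3 CPM and Sdhaf4 had 21.3 CPM, while Sdhaf1 had 2 counts. Ttc19 (75.4 CPM) and Uqcc1 (55.8 CPM) led for complex III, and Atpaf1 (50.5 CPM) and Tmem70 (42.1 CPM) for complex V. Surf1, needed for early cytochrome c oxidase assembly, had a count of 0, under the floor of 0.195 CPM. In 1 library, this 0 does not show that the gene is silent. How reads with several placements were treated is not stated, and its part in this 0 was not tested.

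All 11 regulators listed had at least 10 counts, as did 77.0% of all rows. Their median was 24.3 CPM, close to the 25.2 CPM over all rows with at least 10 counts. Esrra, an orphan nuclear receptor of mitochondrial genes, had 70.9 CPM, and its coactivator Ppargc1a had 49.9 CPM. Ppargc1b was the lowest with 30 counts. Nrf1, the gene of NRF-1, had 18.7 CPM, Yy1 had 30.6 CPM, and Tfam, which packages mitochondrial DNA, had 30.6 CPM.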

How the data were processed

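RNA of 3 hippocampus samples was sequenced after mRNA capture, per the labels' protocols. Per the submitters' processing notes, the tools included Trimmomatic, HISAT2 and HTSeq, with no roles or versions. The authors deposited raw gene counts without normalization. No source names the genome build, the strand setting or how reads with several placements were treated.

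Rows were matched to RefSeq symbols (GRCr8) by gene identifier for 17515 of 18560 genes. CPM was computed on the total of replicate 2. Intervals are 95% exact Clopper-Pearson intervals (scipy 1.17.1, Python 3.11.15), ratios used the conditional binomial form, and they describe counting error alone, because PCR copies cannot be told from separate molecules here. The floor for a count of 0 is 3 counts. The interval and motif code was tested on simulated data.

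The design assumed 3 complete samples and CPM per coding length. Neither could be had, so members are given by counts and CPM of replicate 2 with no test. Members, lists and rules were chosen with earlier results of these data known. The text names the 3 highest and 3 lowest members of each complex, isoform pairs, core, head and c-ring genes, members under 10 counts and the 2 highest of each other list. Other genes named, all motifs but NRF-1, and the search for second rows were chosen after values were seen. Ndufb1, Atp5mpl and Cox8c were not analysed here. For 1 complex I gene, no value of its own is reported here, though it enters the counts and medians.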

Additional observations from a re-analysis of the deposited data

How the results depend on the processing

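For 24 results, 90 alternative values were computed, of which 48 leave out replicate 1 or 3 and could not differ, because neither file as used here holds a member. Of the 42 others, 32 were classed as the same and 10 as moved, by counting error or, for counts of genes, by 1.5 times. The 32 include the NRF-1 share at 28.6% with the shorter letters, against 18.2% with the full ones. Counting error does not apply to shares of fixed windows. Several of the 32 could not differ either, so their number does not measure robustness. All 4 complex II members were protein coding with at least 10 counts, so no setting changed that set. All 18 complex V members had at least 10 counts, and 0 members with a promoter window had more than 1 listed start. With detected members only, the median moved to 95.8 CPM in complex I, 139.5 CPM in complex III and 162 CPM in complex IV. Without tissue isoforms, associated proteins and pseudogenes it was 95.8 CPM in complex I, 139.5 CPM in complex III, 195 CPM in complex IV and 157 CPM in complex V. With protein-coding members only, chosen after seeing the data, it was 95.8 CPM in complex I and 139.5 CPM in complex III. With the 10 genes of most counts left out of the total, the members took 1.33% of counts. Members detected numbered 92 at 1 count and 80 at 50 counts, against 87. The NRF-1 letters were in 14.3% of member windows before the start alone, with no share of other genes beside it. The shorter letters were in 28.6% of member windows, against 18.4% of windows of genes with at least 10 counts. Leaving out replicate 2 ends every value. Values per coding or transcript length were not run for want of lengths. No paired analysis was possible because the series as used here holds a single group. Intervals cover 1 library and say nothing of the spread between animals.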

Other observations

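The assembly factors held second gene rows too, matched by product name after the counts had been seen. Cox11, a copper chaperone of cytochrome c oxidase, had 85 counts, and a second row of that product had 287. Cox15, of heme A synthesis, had 138 counts and 7 in its second row, and Sdhaf1 had 2 in each. As with Atp5pb, Ndufs6 and Ndufa1, a level read from the row with the symbol alone leaves out the counts of the other row.

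The pathway annotation in the files covered the members unevenly. Of the 93 members, 83 carried KEGG's oxidative phosphorylation label, among 116 rows of the table that did. The 10 without it included Cox6b1 (2711 counts), Atp5if1 (2299), Ndufa13 (1858) and Atp5mk (1796). The label for retrograde endocannabinoid signaling, a pathway of synapses, was carried by 38 members, and all 38 were complex I rows. A summary of that pathway in these files is therefore in part a summary of complex I.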
